A study of Mus musculus with 2 samples.

Results

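Glycolytic enzymes and genes of the hypoxia response were followed in a line of mouse gastric epithelial cells, GIF-5, whose genotype is Runx3-/-p53-/- in every sample. The cultured cells, grown in serum without a treatment, had been separated by flow cytometry with an anti-CD133 antibody, and each of 2 two-colour arrays compared total RNA of CD133-positive cells (Cy3) with that of CD133-negative cells (Cy5). The list held 40 genes, and 39 of them, of 27670 gene names on the array, were found as the name of at least 1 non-control spot. The exception was the dehydrogenase Gapdh, which no non-control spot named. The 39 genes were read by 66 probes in 93 of 43379 non-control spots, and 38 were bright enough to be tested. The secreted glycoprotein gene Stc1 was not, since neither of its probes was well above background in either fraction on either array. The list was drawn up by gene name and function, but with earlier results of these data known. GIF-5 is 1 cell line, and the labels call the arrays biological replicates without saying whether the cultures and sorts were separate. The p-values thus rest on the spread between these arrays, partly pooled over all genes, and this spread may be technical.

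Glycolysis splits glucose into pyruvate in the cytosol, and lactate dehydrogenase then turns pyruvate into lactate. When oxygen is scarce, prolyl hydroxylases of the Egln family no longer mark the alpha subunits of hypoxia-inducible factor (HIF) for destruction by the Vhl ubiquitin ligase, and HIF raises most glycolytic enzymes together with genes for blood vessel growth, collagen modification and mitochondrial turnover. HIF binds a short core, ACGTG or GCGTG, in or near many of these genes. In gastric epithelium, as elsewhere, the enzymes run in every cell, whereas many of the other targets stay low until oxygen falls.

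Each value is the log2 of the level in CD133-positive cells over that in CD133-negative cells, so 1 is a 2-fold higher level in CD133-positive cells. Prom1, which encodes the sorted marker CD133, was at 3.83 on array 1 and 3.73 on array 2, a bound of at least 12-fold. Of 15267 genes tested with limma at an adjusted p of 0.05, 211 (1.38%) were called higher and 40 (0.262%) lower, 1.64% in either direction, a split of 84.1% higher that was 70.5% without background correction, 72.6% with a smaller offset, 61.5% after scaling between arrays and 4.79% after median centring in place of loess. The median of all tested genes was -0.02 on array 1 and -0.04 on array 2, and median centring moved these to -0.70 and -0.76. Every one of the 10 spiked-in control RNAs was lower on array 2, the drop lying between 0.23 and 0.42 (median 0.37). Of 20 epithelial markers, 14 were tested, among them Cdh1, Krt8, Krt18, Krt19, Tff1 and Gkn2, while Atp4a and Cblif, which mark acid-secreting and intrinsic factor cells, had no signal above background. Among markers of other cell types, 5 of 8 for fibroblasts, 3 of 8 for blood cells and 4 of 5 for endothelium had no such signal. The remaining endothelial marker, Cdh5, was at 2.20 and 3.02 and was called higher, and its part in the members' values was not tested. Since CD133-positive RNA carried Cy3 on both arrays, dye and fraction cannot be told apart.

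The arrays disagreed on most members. On array 1 their median ratio was 0.61 and 31 of 38 were above 0, against 47.4% of all tested genes. On array 2 the median was -0.26 and 15 of 38 were above 0, against 45.4%. Array 1 exceeded array 2 in 36 of 38 members, against 56.7% of tested genes, and did so by more than 0.5 in 27 of them, against 14.2%. A gap of that size the other way was seen in 1 member, Epas1, against 8.39%. Both arrays were above 0 in 15 members (background 32.6%) and below 0 in 7 (background 39.7%). The exceptions were Stc2 and Epas1, and in Hk2 the difference was 0.00. Exactly 1 member, Stc2, was called higher (background 1.38%) and 0 were called lower (background 0.262%) by limma, while 10 were higher (background 11.9%) and 5 lower (background 16%) at an unadjusted p under 0.05. The 10 include Epas1, which was tested only through the fraction where it is high.

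**Figure D1:**
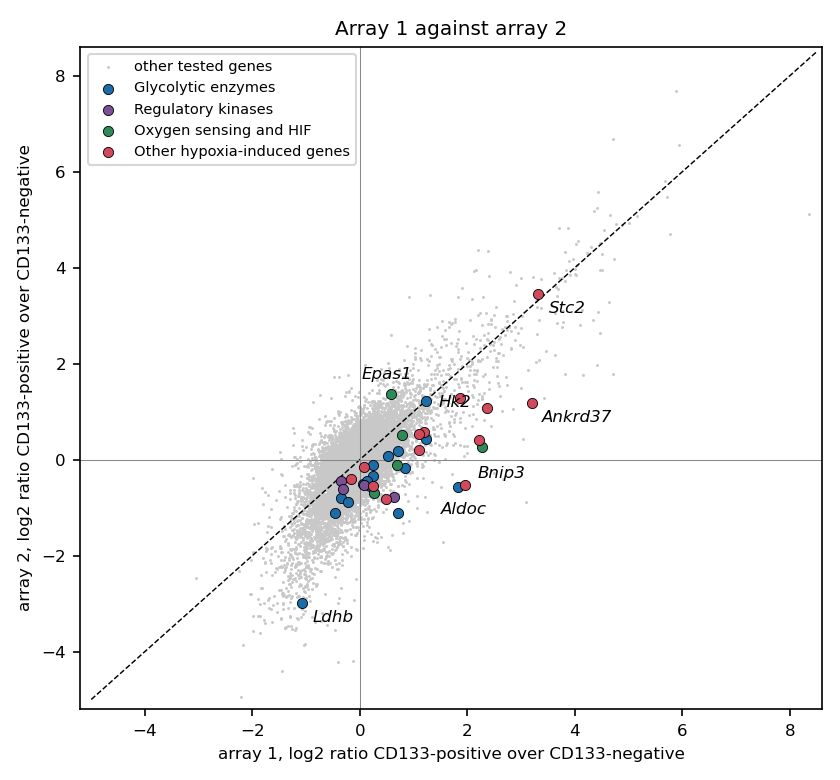
Log2 ratio of CD133-positive over CD133-negative cells on array 1 (horizontal axis) and array 2 (vertical axis) for all 15267 tested genes in grey and the 38 tested members in colour by group, with the dashed line marking equal ratios. Of the members, 36 lie below the line, and Stc2 lies on the far upper right, at 3.32 and 3.45.

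Among the members, hypoxia-induced genes outside glycolysis held the highest ratios. Stc2, which encodes the secreted glycoprotein stanniocalcin 2, was at 3.32 on array 1 and 3.45 on array 2. It rose by 3.39 ± 0.14 (SE from limma, partly pooled over genes, n = 2), which is 10.5-fold, with an adjusted p = 0.012 in limma. Relative to the median of all genes, 3.42 became 4.0 with a smaller offset and 4.78 with the deposited processed signals, so the fold depends on the background treatment. Both arrays lay above 3, and array 2 was slightly the higher. Among the 13 tested genes of this group, 9 were at least 2-fold higher on array 1 (background 3.69%), 4 on array 2 (background 4.19%) and 4 on both (background 2.5%). The 4 were Stc2, Ankrd37, P4ha2 and Plod2.

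Ankrd37, an ankyrin-repeat gene and a known HIF target, had the second highest mean and a wide gap, with 3.20 on array 1 and 1.17 on array 2 (mean 2.18 ± 0.53, limma adjusted p = 0.11). The list also holds 3 collagen-modifying enzymes. The lysyl hydroxylase Plod2 was at 2.37 and 1.07 (limma adjusted p = 0.093). P4ha2, a catalytic subunit of collagen prolyl 4-hydroxylase, was at 1.86 and 1.28 (mean 1.57 ± 0.20, limma adjusted p = 0.064), and passed under 3 of 13 processing alternatives. Its paralogue P4ha1 was at 1.10 and 0.20. None of these 4 genes passed, and in each array 1 was the higher.

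Adm encodes the vasodilator peptide adrenomedullin, and its ratio was 2.21 on array 1 and 0.40 on array 2. The scanner program's own ratios for Adm were 4.42 and 2.11, again with array 1 the higher. Adm was the dimmest tested gene of its group. Relative to the median of all genes, its mean ran from 1.31 to 3.28 over the processing alternatives, so its fold depends on the processing. Ndrg1, a stress-responsive gene, was at 1.09 and 0.54, and Higd1a, a mitochondrial inner membrane protein, at 1.20 and 0.58. These 3 genes were above 0 on both arrays without passing (limma adjusted p of 0.19, 0.11 and 0.11).

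The mitophagy receptor gene Bnip3 changed sides between the arrays, from 1.95 on array 1 to -0.52 on array 2, the widest gap of any member at 2.48. Its relative Bnip3l followed at 0.24 and -0.55, and the mTORC1 inhibitor gene Ddit4 at 0.49 and -0.82. The repressor gene Bhlhb2 (now Bhlhe40) was near 0 on both, with 0.08 and -0.15. Vegfa, the vascular endothelial growth factor, was the only gene of the group below 0 on both arrays, at -0.16 and -0.41 by its brightest probe. Another Vegfa probe, printed in 10 spots, gave 0.32 and -0.07. The probes of Vegfa thus differed in the sign of the mean, as did those of Aldoa, Pdk1 and Pgk1.

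The window of 250 bases before the RefSeq start site (GRCm38.p6) is shown for 5 members, to set genes that read alike on both arrays (Stc2, Hk2) beside genes that did not (Bnip3, Ankrd37, Ldha). Capitals mark ACGTG or GCGTG on either strand, and matches may overlap, as in CACGTG, which holds ACGTG on both strands. The windows are at chr11:31370062-31370311, minus strand for Stc2, chr6:82774455-82774704, minus strand for Hk2, chr7:138909507-138909756, minus strand for Bnip3, chr8:45999851-46000100, minus strand for Ankrd37 and chr7:46845554-46845803, plus strand for Ldha.
Stc2: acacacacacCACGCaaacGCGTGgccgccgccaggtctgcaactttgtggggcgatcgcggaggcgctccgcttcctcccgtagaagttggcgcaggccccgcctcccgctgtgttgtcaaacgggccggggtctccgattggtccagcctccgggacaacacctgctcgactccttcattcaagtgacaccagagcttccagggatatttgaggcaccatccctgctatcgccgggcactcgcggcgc
Hk2: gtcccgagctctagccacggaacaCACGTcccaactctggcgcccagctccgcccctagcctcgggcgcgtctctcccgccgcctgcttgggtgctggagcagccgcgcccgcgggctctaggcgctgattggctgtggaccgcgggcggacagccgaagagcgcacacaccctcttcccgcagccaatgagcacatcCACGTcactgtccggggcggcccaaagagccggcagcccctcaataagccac
Bnip3: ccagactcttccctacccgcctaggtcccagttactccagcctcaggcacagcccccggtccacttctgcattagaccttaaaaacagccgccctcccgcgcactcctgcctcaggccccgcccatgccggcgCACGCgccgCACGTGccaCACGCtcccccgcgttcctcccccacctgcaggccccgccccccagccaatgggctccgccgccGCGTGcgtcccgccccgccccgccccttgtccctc
Ankrd37: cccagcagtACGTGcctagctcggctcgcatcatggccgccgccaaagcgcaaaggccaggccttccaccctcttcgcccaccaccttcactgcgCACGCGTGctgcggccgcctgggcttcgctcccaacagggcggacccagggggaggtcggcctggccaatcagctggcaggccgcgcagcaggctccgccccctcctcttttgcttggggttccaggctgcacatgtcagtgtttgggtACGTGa
Ldha: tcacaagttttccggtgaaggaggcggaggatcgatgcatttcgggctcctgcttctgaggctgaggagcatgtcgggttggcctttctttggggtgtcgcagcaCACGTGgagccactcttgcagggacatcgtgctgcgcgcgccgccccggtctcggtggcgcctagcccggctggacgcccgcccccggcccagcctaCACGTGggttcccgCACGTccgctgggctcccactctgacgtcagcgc
All 5 windows held the core, with 2 matches for Stc2, 2 for Hk2, 5 for Bnip3, 4 for Ankrd37 and 5 for Ldha. Since most listed genes hold it, these 5 windows cannot show whether its presence goes with reading alike on both arrays. In Stc2 the matches began 240 and 231 bases before the start. Ldha also had a second RefSeq start site, and the window before that site, not shown, held 1 match. Of the 34 listed genes with an entry in the promoter table, 30 (88.2%) had a match in at least 1 window, among them all 9 hypoxia-induced genes outside glycolysis and 14 of 17 enzymes. Over the table, 41.5% of genes had one. The core contains CG, and member windows held a median of 14 CG dinucleotides against 6 over all windows. Among all windows with at least that many, 67.3% held the core, against 25 of 28 such member windows (89.3%). A match is a description of letters and not of binding.

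Of the 16 tested glycolytic enzymes none passed, and 2 were higher (background 11.9%) and 3 lower (background 16%) at an unadjusted p under 0.05 in limma, which is near the background. Their median was 0.25 on array 1 and -0.47 on array 2. On array 1, 12 of 16 were above 0 (background 47.4%), and on array 2, 4 of 16 (background 45.4%). The 4 that were above 0 on both arrays were Hk2, Pfkl, Gpi1 and Tpi1. By the brightest probe, the sign changed between arrays in 8 enzymes, every time from above 0 on array 1 to below 0 on array 2, which 14.9% of tested genes did. Other tested probes of Hk1, Aldoa, Pgk1 and Pkm2 changed sign too, whereas another probe of Ldha, of Aldoc and of Pfkp did not.

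Hexokinase commits glucose to the pathway, and its isoforms differed. Hk2, the hexokinase isoform that HIF induces, was at 1.23 on array 1 and 1.22 on array 2. This is a mean of 1.23 ± 0.14 or 2.34-fold, with a limma adjusted p = 0.054 that fell under 0.05 in 6 of 13 alternatives. Hk1, the widely expressed isoform, was at 0.06 and -0.50. The phosphofructokinase subunits also differed among themselves. The liver-type subunit Pfkl was at 1.22 and 0.44, and the muscle-type subunit Pfkm at -0.23 and -0.89. The platelet-type subunit Pfkp read 0.71 and -1.11 by its brightest probe. Other tested probes of Pfkp gave 0.13 and -0.31, and -0.19 and -0.26, so they disagreed in size and, on array 1, in sign.

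For the enzymes other than hexokinase, phosphofructokinase and lactate dehydrogenase, most ratios lay within 1 log2 unit of 0. Gpi1, the isomerase that forms fructose 6-phosphate, was at 0.71 and 0.18, and triose phosphate isomerase Tpi1 at 0.53 and 0.07. The aldolase Aldoa was at 0.19 and -0.55. Its paralogue Aldoc was at 1.82 and -0.58, the widest gap among the enzymes at 2.40, although a second Aldoc probe gave 0.99 and 0.20. The phosphoglycerate kinase Pgk1 was at 0.25 and -0.34, and the mutase Pgam1 was below 0 on both arrays, at -0.46 and -1.12. For enolase, Eno1 was at 0.25 and -0.11, and Eno2, the neuronal isoform, at -0.36 and -0.80. Pyruvate kinase, listed as Pkm2 (now Pkm), was at 0.13 and -0.44, and its probe does not tell the splice forms apart here because its sequence was not used. Under median centring Gpi1, Tpi1, Eno1 and Ldha turned to below the median of all tested genes.

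The lactate dehydrogenase subunits pointed in different directions on array 1. Ldha, which favours lactate formation and is a HIF target, was at 0.84 on array 1 and -0.18 on array 2 by its brightest probe. A second Ldha probe gave 0.99 and 0.09, above 0 on both arrays. Ldhb, the subunit of oxidative tissues, had the lowest ratio of all members, -1.08 and -2.99 (mean -2.03 ± 0.50, limma adjusted p = 0.11). Relative to the all-gene median, the deposited processed signals gave -2.65 for Ldhb and -1.19 for Eno2. Ldhb was the only member at least 2-fold lower on array 1 (background 2.67%), 1 of 3 on array 2 (background 7.91%) with Pgam1 and Pfkp, and the only one on both (background 2.12%).

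**Figure D2:**
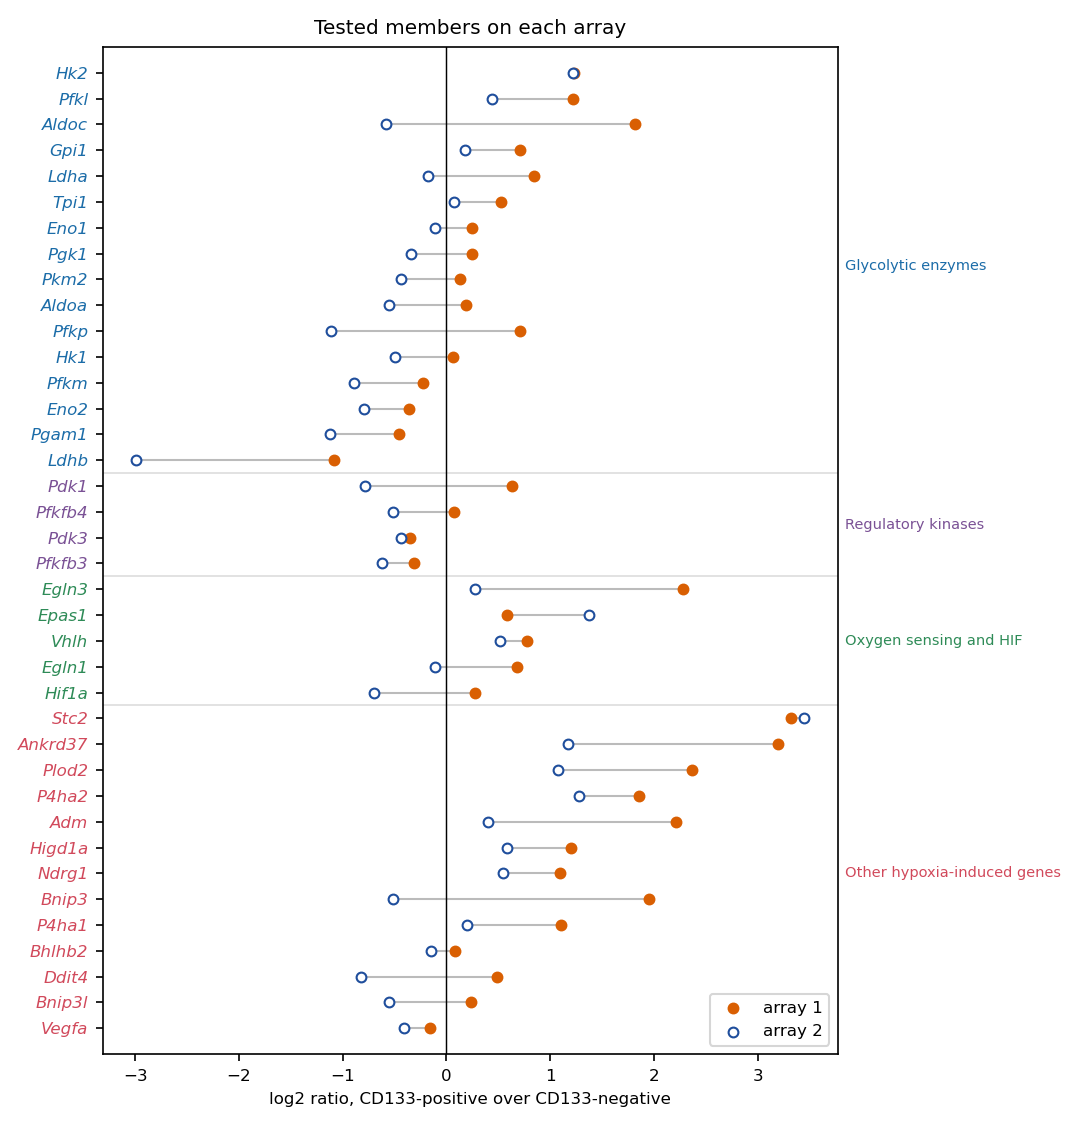
Log2 ratio of CD133-positive over CD133-negative cells (horizontal axis) for each of the 38 tested members on array 1 (filled) and array 2 (open), with gene names coloured by group and ordered by mean within a group. The filled point lies to the right in every gene but Stc2 and Epas1, and the 2 points of Hk2 coincide.

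Of the kinases that set the flow through glycolysis, none was above 0 on both arrays. Pfkfb3 and Pfkfb4 make the activator of phosphofructokinase, and were at -0.31 and -0.62, and at 0.07 and -0.52. Pdk1 and Pdk3 phosphorylate pyruvate dehydrogenase and so block the conversion of pyruvate to acetyl-CoA in mitochondria. Pdk1 was at 0.63 on array 1 and -0.79 on array 2, and Pdk3 at -0.35 and -0.44. None of the 4 passed in limma, with 0 higher (background 11.9%) and 2 lower (background 16%) at an unadjusted p under 0.05, and all 4 were below 0 on array 2.

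Of the genes that sense oxygen, Hif1a, which encodes the broadly expressed HIF alpha subunit, was at 0.27 and -0.70. Epas1, which encodes HIF-2 alpha, was at 0.58 and 1.37 and was 1 of 2 members with the higher ratio on array 2. On both arrays its probe cleared the background in CD133-positive cells only, so the ratio is a bound, at least 1.97-fold higher. Relative to the all-gene median, its mean became 3.33 with the deposited processed signals and 1.61 with median centring, where it passed (limma adjusted p = 0.027 and 0.019), and 0.35 by its dimmest probe. A second Epas1 probe, also above the background in CD133-positive cells only, read 0.18 and 0.48. The prolyl hydroxylase Egln3, itself a HIF target, was at 2.28 and 0.27, and Egln1, the main hydroxylase, at 0.68 and -0.11. Vhlh (now Vhl), part of the ubiquitin ligase that removes HIF alpha, was at 0.78 and 0.52 and above 0 on both arrays. None of the 5 passed in limma, with 2 higher (background 11.9%), 1 of them Epas1, and 0 lower (background 16%) at an unadjusted p under 0.05.

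For 3 genes the gap between arrays could be set against the scatter of spots within an array. Probes of Gpi1, Pgk1 and Vegfa were each printed in 10 spots, with an SD of 0.03 to 0.04 on each array. Gpi1 spots spanned 0.65 to 0.78 on array 1 and 0.13 to 0.27 on array 2. Pgk1 spots spanned 0.18 to 0.32 and -0.39 to -0.23. Vegfa spots spanned 0.28 to 0.37 and -0.16 to -0.03. The arrays did not overlap in any of the 3. Over all tested genes the median SD between arrays was 0.18, also wider than this scatter, so the lack of overlap is not particular to these genes. Of 17 members with more than 1 tested probe, every probe was higher on array 1 in 16, the exception being Epas1. No share over all genes is given for this count, while by 1 probe per gene array 1 was higher in 56.7% of tested genes. By the error that the scanner program gives for a spot, 22 of 38 members differed between arrays by more than 2 combined errors, all 22 with array 1 higher. Over all tested genes 14.9% did so in that direction and 25.8% in either.

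Each array carries both fractions, so the level in each could be followed from array to array after normalisation of the mean intensities. In CD133-positive cells the members' level was higher on array 1 in 35 of 38 (background 54.5%), by a median of 0.61. In CD133-negative cells it was higher on array 1 in 16 of 38 (background 43.8%), with a median of -0.02. Medians over all tested genes were 0.03 and -0.03. The change in CD133-positive cells was the larger of the 2 in 32 of 38 members (background 63.1%). CD133-positive RNA was in the Cy3 channel on both arrays.

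Single genes showed this in full. The normalised log2 intensity of Bnip3 in CD133-positive cells was 13.99 on array 1 and 11.52 on array 2, while in CD133-negative cells it was 12.04 on both. Ankrd37 was at 11.93 and 9.66 in CD133-positive cells and at 8.74 and 8.49 in CD133-negative cells. Ldhb was at 9.54 and 6.94 against 10.62 and 9.93. Bnip3, Ankrd37 and Ldhb moved by over 2 log2 units in the positive fraction and by under 1 in the negative one. Aldoc moved in both, with 12.11 and 10.86 in CD133-positive cells and 10.29 and 11.44 in CD133-negative cells. Ddit4 was the reverse case, with 13.10 and 13.09 in CD133-positive cells and 12.61 and 13.90 in CD133-negative cells. Stc2 hardly moved in either fraction, at 9.66 and 9.88 and at 6.34 and 6.43. With the deposited processed signals, each channel centred, the medians over all tested members were 0.65 and 0.04.

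**Figure D3:**
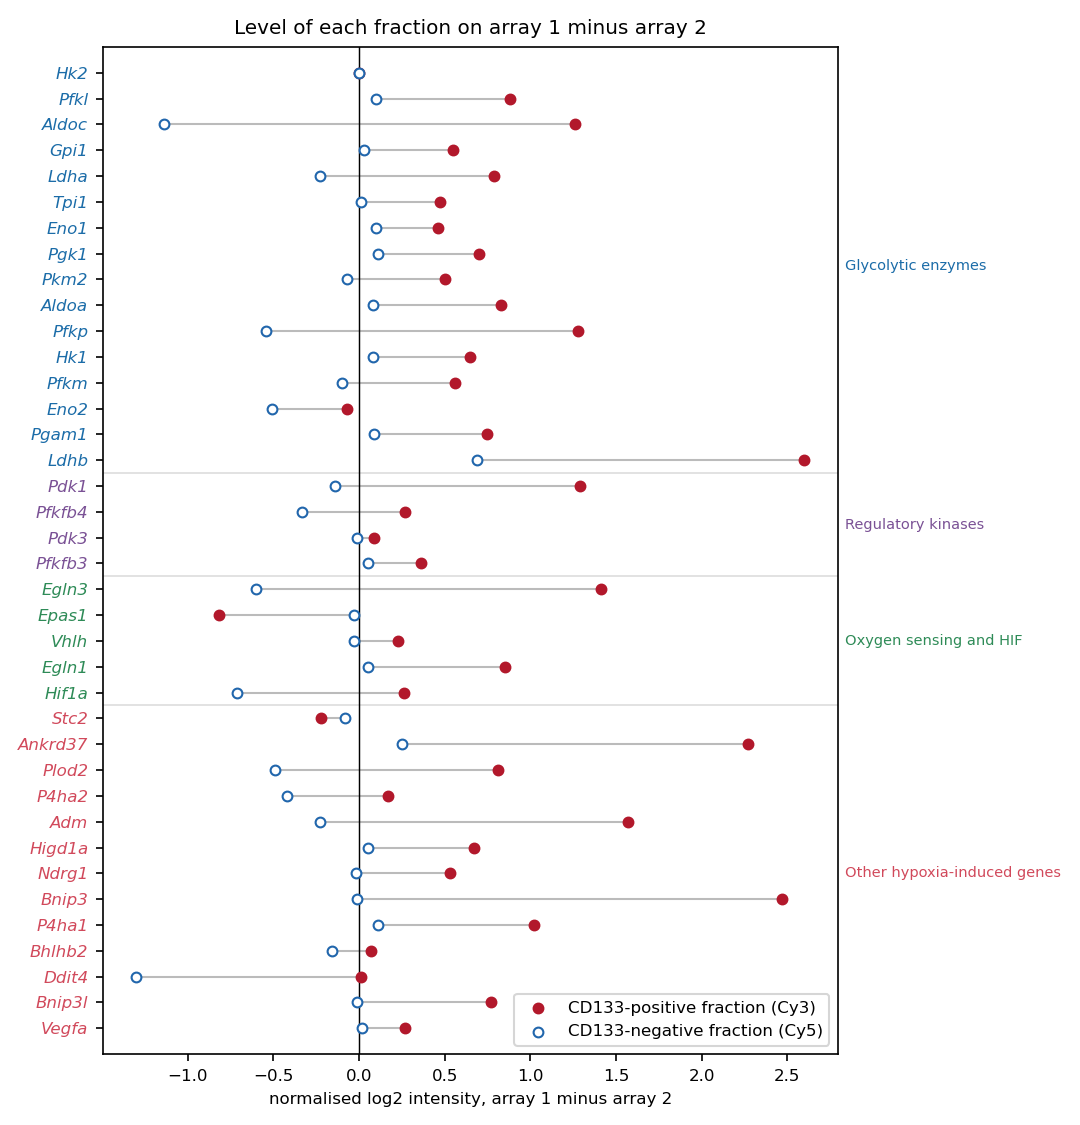
Normalised log2 intensity on array 1 minus that on array 2 (horizontal axis) for each tested member in CD133-positive cells (filled, Cy3) and CD133-negative cells (open, Cy5), in the gene order of the plot of ratios. Filled points lie above 0 in 35 of 38 genes with a median of 0.61, and open points centre on 0 with a median of -0.02.

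Set side by side on each array, the enzymes lay below the other listed hypoxia-induced genes by their medians, while the groups overlapped. On array 1 the medians were 0.25 for 16 enzymes and 1.20 for 13 other induced genes, a difference of -0.95. On array 2 they were -0.47 and 0.40, a difference of -0.87. The distance between the groups was thus alike on both arrays while both groups shifted, by a median of 0.62 for the enzymes and 0.79 for the induced genes. With 2 arrays a permutation test cannot give a p below 0.5, so no test was made. Over the processing alternatives the difference lay between -0.98 and -0.76 on array 1, and between -1.02 and -0.56 on array 2. Ratios on array 1 ran from -1.08 to 1.82 for the enzymes and from -0.16 to 3.32 for the induced genes. On array 2 they ran from -2.99 to 1.22 and from -0.82 to 3.45. In a further list, 35 tested hypoxia-induced genes had medians of 0.11 and -0.30. These lay below the enzymes on array 1 and above them on array 2, so the difference describes the listed genes only.

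Other values moved in the same direction and are given beside the shift. The spiked-in RNAs were lower on array 2 by a median of 0.37. The 14 tested epithelial markers were higher on array 1 in 12 cases (background 56.7%), with a median difference of 0.26. Median ratios of these markers were 1.66 on array 1 and 0.40 on array 2. On both arrays 10 were above 0 (background 32.6%) and 3 below 0 (background 39.7%), and 4 were called higher (background 1.38%). The part of the spiked-in RNAs and of these markers in the shift was not tested. The 1527 brightest tested genes had medians of -0.01 on array 1 and -0.03 on array 2 and a median difference of 0.03.

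Further genes of these pathways were read the same way. Of 41 further hypoxia-induced genes 35 were tested, 1 rose (background 1.38%) and 0 fell (background 0.262%). The gene that rose was Ak4, a mitochondrial adenylate kinase, at 2.29 and 1.73 (mean 2.01 ± 0.20, limma adjusted p = 0.044). At an unadjusted p under 0.05 in limma, 7 were higher (background 11.9%) and 10 lower (background 16%). Array 1 was the higher in 31 of the 35 (background 56.7%), with a median difference of 0.44 over the 35. The oxidoreductase gene Ero1a was at 1.59 and 0.02, and Angptl4, a lipoprotein lipase inhibitor, at 0.42 and -1.10. The histone demethylase gene Kdm3a was at 0.84 and 0.94 and the carbonic anhydrase gene Car9 at 0.94 and 0.50. Of the 35, 12 were above 0 on both arrays (background 32.6%) and 15 below 0 on both (background 39.7%). On array 2, 2 were at least 2-fold higher (background 4.19%) and 9 at least 2-fold lower (background 7.91%). The phosphatase Dusp1 was at -0.51 and -2.25, without passing, whereas the endothelin gene Edn1 was at 1.38 and 1.07.

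Of 36 genes of neighbouring carbon metabolism 29 were tested, 1 rose (background 1.38%) and 0 fell (background 0.262%). At an unadjusted p under 0.05 in limma, 3 were higher (background 11.9%) and 6 lower (background 16%). Array 1 was the higher in 21 of the 29 (background 56.7%), with a median difference of 0.31 over the 29. The gluconeogenic enzyme Pck2 was at -0.46 and -1.87, the glycerol 3-phosphate dehydrogenase Gpd1 at -0.55 and -1.36 and the pyruvate dehydrogenase kinase Pdk4 at -0.41 and -1.14, and these 3 did not pass.

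Of 9 genes of glucose and lactate transport 8 were tested and none passed by limma, with 2 higher (background 11.9%) and 0 lower (background 16%) at an unadjusted p under 0.05. The glucose transporter Slc2a3 was at 1.00 and 0.96, while Slc2a1 was at 0.53 and -0.46. The monocarboxylate transporter Slc16a1 was at 0.78 and 1.42, and Slc16a3, the lactate exporter that HIF induces, at -0.39 and -2.89. Of 14 genes of the HIF machinery 13 were tested and none passed by limma, with 1 higher and 2 lower at an unadjusted p under 0.05, near the background of 11.9% and 16%. The coactivator competitor Cited2 was at -0.96 and -2.19, the HIF partner Arnt2 at -0.95 and -1.71 and the lectin gene Os9 at 0.65 and 0.55. In this list array 1 was the higher in 4 of 13, with a median difference of -0.13.

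**Figure D4:**
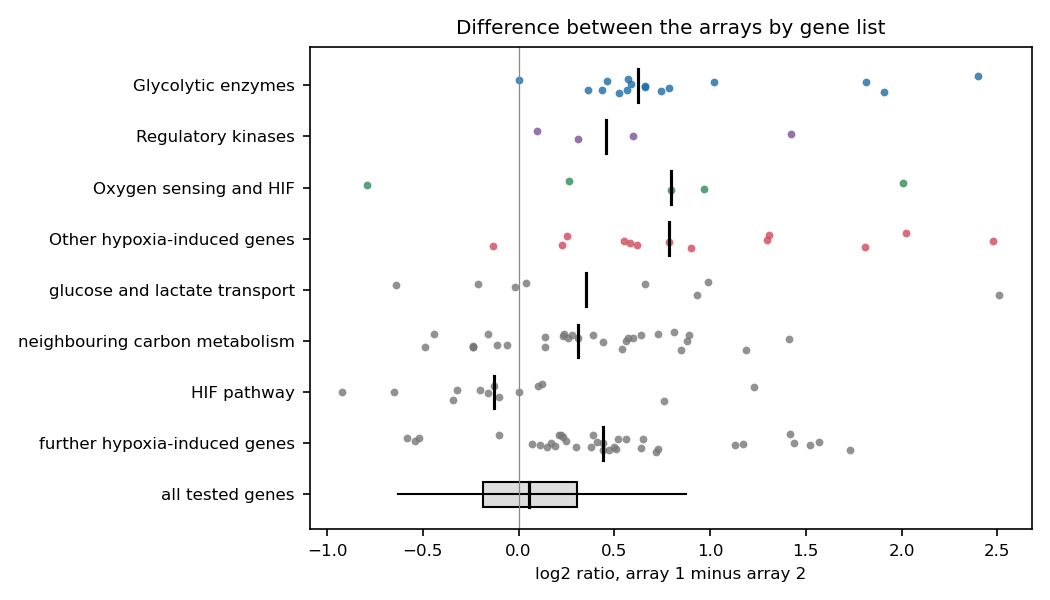
Log2 ratio on array 1 minus that on array 2 (horizontal axis) for every tested gene of the 4 member groups (coloured) and 4 further lists (grey), with a black bar at each median and, for all 15267 tested genes, a box of the middle 50% with its median and a line from the 5th to the 95th percentile. Group medians are 0.62, 0.45, 0.79 and 0.79 for the members from top to bottom, against 0.06 for all tested genes and -0.13 for the HIF machinery.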

How the data were processed

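Total RNA of CD133-positive (Cy3) and CD133-negative (Cy5) GIF-5 cells was hybridised to 2 Agilent arrays. Per the file headers, Agilent's Feature Extraction (9.5.3.1) gave each spot a mean intensity and a background intensity. It also gave, as deposited, a processed intensity after background subtraction, detrending and dye normalisation. From these it wrote the deposited log10 ratio, Cy5 over Cy3, with an error and p-value from its own model of 1 array. The authors' value table repeats that log10 ratio at each of 45018 spots (median 0 per array). No spot was saturated. The number of arrays limits the precision.

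Intensities were corrected by normexp (offset 50) and normalised by loess within arrays, with control spots at weight 0. Ratios were turned to CD133-positive over CD133-negative and unflagged spots of a probe averaged. A probe was tested if well above background in 1 fraction on both arrays. Of 41174 probes, 22951 were named by accession and 9768 by symbol through RefSeq (GRCm38.p6), and 8455 kept the file's name. A gene was read by its brightest tested probe. The test was limma 3.58.1 in R 4.3.3, two-sided, with Benjamini-Hochberg adjustment over 15267 genes, 1 residual and 2.86 prior degrees of freedom, and was tested on simulated data. ± is the moderated standard error. Levels per fraction were taken after limma's Aquantile normalisation, a log2 scale, a step added after values were seen. All members were named, and from each further list the called genes and up to 3 more by size. Some genes that this rule names are not reported here. Slc2a1, Ero1a, Angptl4, Kdm3a and Car9 were named after their values were seen. The members and lists were chosen with earlier results of these data known. Alternatives changed the background correction, normalisation, filter, probe choice, naming and variance model.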

Additional observations from a re-analysis of the deposited data

How the results depend on the processing

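Each ratio already pairs the fractions within an array, so the fit on ratios is the paired analysis. Over 13 alternatives, 29 of 38 members kept their sign, taken relative to the all-gene median, and Epas1 was not tested under the filter for both channels. Stc2 passed in 12 alternatives, with limma adjusted p from 0.0043 to 0.046, and did not pass without moderation of the variance. The members called higher numbered 3 under an intensity trend, an offset of 16 or no background correction, and 2 with scaling between arrays, the processed signals, the filter for both channels and the mean of probes. With median centring 2 were called higher and 19 lower, beside 9623 of all 15267 genes called lower, and Gpi1 (-0.02), Tpi1 (-0.19), Eno1 (-0.13) and Ldha (-0.15) turned below the median of all genes. Without moderation 0 members and 0 genes were called by limma, with 799 genes higher and 708 lower at an unadjusted p under 0.05. Genes called higher and lower numbered 398 and 150 with an offset of 16, 484 and 9623 with median centring, 320 and 200 with scaling, 392 and 94 with processed signals, 29 and 0 without a filter (2994 lower at an unadjusted p under 0.05 in limma), and 494 and 326 with the trend. Genes called lower numbered 119 without background correction, 73 under the both-channel filter and 12 with the dimmest probe. The enzymes minus the other induced genes on array 1 came to -0.88 with median centring, -0.76 with processed signals and -0.88 with the mean of probes. On array 2 it came to -1.01 without background correction, -1.02 with an offset of 16, -0.96 with median centring, -0.82 with processed signals, -0.77 without a filter, -0.68 with the mean of probes and -0.56 with the dimmest probe. The enzymes' shift between arrays was 0.82 with median centring. The cause of these changes was not tested. Leaving out 1 array leaves no residual degree of freedom, so it gives a value with no test.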
